A study of Mus musculus with 7 samples.

Results

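The 10 genes described here encode parts of the contractile unit of striated muscle, or switch that unit on, and were read out in bulk RNA-seq of embryonic mouse retina. They are *Myh3*, *Myh8* and *Myh7* (myosin heavy chains), *Mylpf*, *Myl1* and *Myl4* (myosin light chains), *Acta1* and *Actc1* (actins), *Tnnt3* (a troponin) and *Myog* (a transcription factor). Each was matched by its symbol to 1 row of the deposited count table, so that 10 of its 48440 genes are members. They were selected from earlier results of these data, because their counts stood out in a single heterozygous library, HET1. The level in HET1 is therefore a description here and carries no test. Comparisons that leave out HET1 do not use that level. They are not fully independent of the choice, since standing out in 1 library also asks for lower values in the others.

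The series holds 7 libraries from retinas dissected at embryonic day 16 and frozen, then pooled by genotype. All of them carried *Chx10-Cre*, a Cre transgene that acts in retinal progenitors. The WT library (genotype Chx10Cre, 6 retinas) had no replicate. Libraries HET1, HET2 and HET3 (Chx10-Cre;Ptbp1lox/WT) came from 5, 5 and 6 retinas, and KO1, KO2 and KO3 (Chx10-Cre;Ptbp1lox/lox) from 4, 4 and 6. In these mice loxP sites lie around the promoter and first exon of *Ptbp1*, an RNA-binding regulator of splicing, and the study's contrast was KO against HET. Since retinas were pooled, no value belongs to 1 animal, and the sources used here do not say which litters entered a pool.

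Counts on genes summed to between 120593979 (HET2) and 171117305 (HET1) per library, so that 3 counts correspond to 0.0177 to 0.0252 CPM (counts scaled to library size, here after TMM normalization). *Ptbp1* was at 381 CPM in WT, at 210 to 234 CPM in the HET libraries and at 6.04 to 46.9 CPM in the KO libraries, in the order of the labels. The 14 listed retinal markers summed to 3374 to 3571 CPM, and HET1 lay inside that range at 3406 CPM. In HET1, lists of pigmented, connective tissue and surface epithelium genes were high along with muscle, and the contrast of KO with HET is therefore given with and without that library.

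Striated muscle contracts when myosin thick filaments pull on actin thin filaments, and troponin on the thin filament makes the pull depend on calcium. A myosin molecule has heavy chains, which hold the motor, and essential and regulatory light chains, which stiffen and tune its lever arm. Most of these parts exist as several isoforms, each from its own gene. Developing skeletal muscle uses embryonic (*Myh3*) and perinatal (*Myh8*) heavy chains before adult fast forms replace them, while slow fibres and the heart ventricle share *Myh7*. The retina itself forms no striated muscle, but the eye is moved by extraocular muscles attached to the sclera around it.

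The promoter windows of 4 members are shown because these genes moved together in HET1 and span the thick and thin filament: the fetal heavy chains *Myh3* and *Myh8*, and the sarcomeric actins *Acta1* and *Actc1*. The windows are the bases before the RefSeq start on GRCm38.p6, in the direction of transcription. For *Actc1*, 12 bases next to the start were left out because GENCODE places them in an exon. Capitals mark an E box (CANNTG, the core bound by myogenic bHLH factors such as myogenin), TATAAA, a MEF2 site or a CArG box (the site of serum response factor), each searched on both strands. *Myh3* is at chr11:67078050-67078299 (+), *Myh8* at chr11:67276874-67277123 (+), *Acta1* at chr8:123894776-123895025 (-) and *Actc1* at chr2:114052888-114053125 (-).
Myh3: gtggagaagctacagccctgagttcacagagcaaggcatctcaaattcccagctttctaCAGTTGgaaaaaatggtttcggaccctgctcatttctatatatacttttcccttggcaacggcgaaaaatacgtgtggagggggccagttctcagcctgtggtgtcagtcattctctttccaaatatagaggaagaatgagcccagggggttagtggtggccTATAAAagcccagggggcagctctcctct
Myh8: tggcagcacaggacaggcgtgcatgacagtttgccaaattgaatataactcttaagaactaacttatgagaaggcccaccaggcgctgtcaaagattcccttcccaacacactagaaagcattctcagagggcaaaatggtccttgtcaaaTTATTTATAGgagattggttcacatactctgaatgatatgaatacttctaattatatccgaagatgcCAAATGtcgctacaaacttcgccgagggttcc
Acta1: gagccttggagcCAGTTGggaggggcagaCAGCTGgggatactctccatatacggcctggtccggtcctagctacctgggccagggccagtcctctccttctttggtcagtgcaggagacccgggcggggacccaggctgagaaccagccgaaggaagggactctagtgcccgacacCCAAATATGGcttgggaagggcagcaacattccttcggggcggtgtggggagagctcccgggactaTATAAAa
Actc1: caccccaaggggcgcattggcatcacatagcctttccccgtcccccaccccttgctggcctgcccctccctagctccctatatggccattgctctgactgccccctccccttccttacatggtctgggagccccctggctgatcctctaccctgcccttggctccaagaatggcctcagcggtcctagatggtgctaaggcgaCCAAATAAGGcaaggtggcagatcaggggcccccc

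Of the 10 members, 9 had a window in the RefSeq table, *Tnnt3* being the exception. Over the 250 bases before the start, 7 of the 9 held CANNTG, which 66.2% of all 32851 windows hold. The E box CAGCTG, a special case of CANNTG, was in 3 of 9, against 13.0% of all windows. TATAAA was in 4 of 9, against 12.4%. The MEF2 site was in 1, that of *Myh8*, against 2.92%, and it begins 99 bases before the start with a TATAAA of the opposite strand inside it. CArG boxes were in 2, those of *Acta1* and *Actc1*, against 1.47%, beginning 73 and 47 bases before the start. The *Myh3* window has TATAAA beginning 29 bases before the start. These matches describe the letters only, and binding was not measured.

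*Myh3*, the embryonic myosin heavy chain (chr11:67078300-67102291, up to 41 exons), had 15081 counts in HET1. It had 132 in WT, 127 in HET2, 172 in HET3, 143 in KO1, 151 in KO2 and 159 in KO3. HET1 thus stood alone, and the other 6 libraries lay close together whatever their genotype. At 88.8 CPM, HET1 was 74.4 times the highest other library (95% counting interval 63.6 to 87.5), while the other 6 ran from 0.888 CPM in WT to 1.19 CPM in KO3.

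*Myh8*, the perinatal heavy chain in the same gene cluster (chr11:67277124-67308634), had 4733 counts in HET1. It had 12 in WT, 25 in HET2, 18 in HET3, 15 in KO1, 11 in KO2 and 18 in KO3. The ratio of HET1 to the next library, HET2, was 133 (89.8 to 205), and outside HET1 the gene was close to the limit of detection. *Myh7*, the slow and β-cardiac heavy chain (chr14:54970684-54994626), behaved differently, with 570 counts in HET1. It had 112 in WT, 103 in HET2, 105 in HET3, 104 in KO1, 123 in KO2 and 101 in KO3. Its ratio to the next library was 3.59 (2.95 to 4.40), the lowest of the 10 members.

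*Mylpf*, the regulatory light chain of fast skeletal myosin (chr7:127208890-127214298), had 7015 counts in HET1. It had 418 in WT, 280 in HET2, 375 in HET3, 311 in KO1, 323 in KO2 and 394 in KO3. Of the members it was the most abundant outside HET1, at 2.35 to 2.96 CPM, so that its ratio of 14.0 (12.6 to 15.5) was the second lowest. The essential light chain *Myl1* (chr1:66924295-66945404), found in fast skeletal fibres, had 3371 counts in HET1. It had 9 in WT, 15 in HET2, 9 in HET3, 5 in KO1, 15 in KO2 and 23 in KO3, a ratio of 115 (76.5 to 182) over KO3. *Myl4* (chr11:104550663-104595753), the embryonic and atrial essential light chain, had 2661 counts in HET1. It had 38 in WT, 17 in HET2, 40 in HET3, 26 in KO1, 34 in KO2 and 28 in KO3, a ratio of 59.4 (43.5 to 83.4). For all 3 light chains the HET1 value lay above every other library, and WT, HET2, HET3 and the KO libraries overlapped.

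*Acta1*, the skeletal muscle α-actin (chr8:123891769-123894751), had 10903 counts in HET1. It had 115 in WT, 81 in HET2, 121 in HET3, 118 in KO1, 116 in KO2 and 108 in KO3, a ratio of 72.1 (60.1 to 87.2). *Actc1*, the cardiac α-actin that embryonic skeletal muscle also makes (chr2:114047282-114053548), had 8831 counts in HET1. It had 19 in WT, 20 in HET2, 29 in HET3, 12 in KO1, 22 in KO2 and 9 in KO3, and its ratio of 272 (189 to 406) was the highest of the members. The actins thus reached like levels in HET1, 64.2 and 52.0 CPM, from unlike levels elsewhere.

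*Tnnt3*, the fast skeletal troponin T that ties troponin to tropomyosin (chr7:142498836-142516009), had 2343 counts in HET1. It had 10 in WT, 14 in HET2, 16 in HET3, 1 in KO1, 13 in KO2 and 11 in KO3, a ratio of 117 (69.8 to 215). *Myog* encodes myogenin, the bHLH factor that drives myoblasts into differentiation (chr1:134289989-134292548, 3 exons). It had 848 counts in HET1, and 3 in WT, 0 in HET2, 3 in HET3, 3 in KO1, 2 in KO2 and 2 in KO3. Outside HET1 it was at or under 3 counts in every library, and the ratio to KO1 was 221 with a counting interval of 75.2 to 1071.

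**Figure D1:**
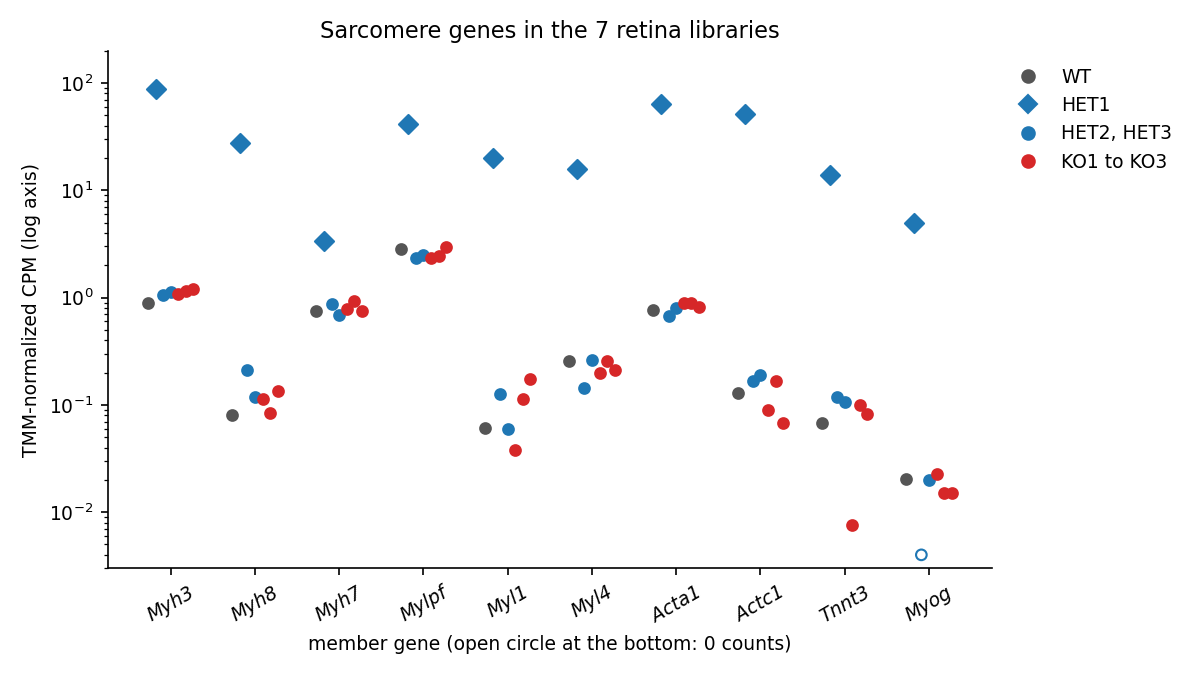
TMM-normalized CPM of each of the 10 sarcomere genes (x axis) in each library (y axis, logarithmic), with 1 point per library coloured by genotype and HET1 drawn as a diamond. HET1 lies above the other 6 libraries for every gene, by 3.59 times for *Myh7* and by 14.0 to 272 times for the other 9, and the open circle marks the 0 counts of *Myog* in HET2.

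Over the 10 genes the median ratio of HET1 to the highest other library was 94.7, while over the 20019 genes tested it was 0.904. At 4-fold or more stood 9 of the 10, against 303 of 20019 genes (1.51%). These ratios are what the genes were chosen on and are given as a description of 1 library. Intervals here cover counting error only. The members' counts summed to 56356 in HET1 (332 CPM) and to between 682 and 888 in the others (5.57 to 6.40 CPM).

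Because heavy chain genes are long and actin genes short, levels were compared between genes per kilobase of annotated exon. On that scale the highest members in HET1 were *Acta1* at 41.8, *Mylpf* at 38.9 and *Actc1* at 32.1 CPM per kilobase. *Myh3* followed at 14.7, *Myl1* at 9.57 and *Tnnt3* at 8.71 CPM per kilobase. *Myl4* at 3.38 (95% counting interval 3.25 to 3.51) and *Myog* at 3.34 (3.12 to 3.57) could not be separated. *Myh8* came next at 2.37 and *Myh7* last at 0.389 CPM per kilobase. With the longest transcript as the length, *Mylpf* (53.9) came before *Acta1* (44.4) and *Myl1* (18.3) before *Myh3* (14.7). On that length *Myl4* (4.79) and *Myh8* (4.53) both lay above *Myog* (3.34), so these places in the order depend on the gene model. Outside HET1 the median levels per kilobase ranked *Mylpf* first at 2.32 and *Acta1* second at 0.523, and all other members were at or below 0.183 CPM per kilobase.

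The myosin heavy chains of HET1 were mostly fetal. Per length, *Myh3* made up 80.3% (exact binomial 95% interval 79.8 to 80.7) of the 21353 counts on 10 sarcomeric heavy chain genes and *Myh8* another 13.0% (12.6 to 13.3). Together these fetal forms held 93.2% (92.9 to 93.5). The slow form *Myh7* held 2.13%, and *Myh7b*, a related gene of slow and extraocular fibres, 2.68%. The adult fast form *Myh2* held 0.962%, from 213 counts. The adult fast forms *Myh4* and *Myh1* had 29 and 10 counts and the extraocular form *Myh13* had 9. *Myh7b* had 552 counts in HET1 and 272 to 433 in the others, and its CPM in HET1 (3.25) did not exceed the highest of them (3.29, in KO2). It did exceed WT, HET2 and HET3 (1.79 to 2.44 CPM). *Myh6*, the atrial α-cardiac heavy chain, had 132 counts in HET1 against 23 to 48 elsewhere. In the other 6 libraries the fetal pair held only 22.4% to 31.1% of the heavy chain counts per length, and *Myh7b* held 42.6% to 58.8%. The split within the fetal pair in HET1 depends on the gene model. With the longest transcript as the length *Myh3* held 71.0% and *Myh8* 21.9%, and without length correction 70.6% and 22.2%.

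The light chains showed the same leaning to fast and fetal genes. *Mylpf* held 95.9% (95.5 to 96.3) of the regulatory light chain counts per length, against 2.73% for the slow and ventricular *Myl2* and 1.35% for the atrial *Myl7*. In the other libraries too *Mylpf* held most of these counts, 73.9% to 85.8%. *Myl7* had 55 counts in HET1 and 23 to 64 in the others, so that HET1 did not stand apart for it. Of the essential light chains *Myl1* held 71.2%, *Myl4* 25.2% and the slow and ventricular *Myl3* 3.60%. Without length correction the split of *Myl1* and *Myl4* was 54.4% against 42.9%, since their annotated exon lengths differ. *Acta1* held 56.5% (55.8 to 57.2) and *Actc1* 43.5% of the sarcomeric actin counts per length. The share of *Acta1* was higher in the other libraries, at 81.0% to 92.7%.

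The troponins were more mixed than the heavy chains. *Tnnt3* held 63.8% (62.5 to 65.0) of the troponin T counts per length, the slow skeletal *Tnnt1* 29.4% and the cardiac *Tnnt2* 6.84%. Of the troponin I genes the fast *Tnni2* held 65.6%, the slow *Tnni1* 31.4% and the cardiac *Tnni3* 2.97%. Without length correction *Tnni1* (1585 counts) was ahead of *Tnni2* (1377 counts), so that order rests on the lengths. The slow and cardiac troponin C, *Tnnc1*, had 1286 counts in HET1 and 50 to 63 in the others. The fast troponin C, *Tnnc2*, had 1 count in HET1, but 74.0% of its exon bases overlap *Ube2c* on the opposite strand, and how such reads were counted is not given in the sources used here.

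By list, 2 of 2 fetal heavy chains, 2 of 2 sarcomeric actins and 2 of 3 fast troponins passed 4-fold in HET1. So did 4 of 5 fast or fetal genes of light chains and their kinases (*Mylk4* and *Mylk2*). Apart from *Mylk4* and *Tnni2*, all genes passing in these lists are members, chosen for their level in HET1. Also past 4-fold were 3 of 3 slow skeletal troponins and 2 of 5 adult fast and extraocular heavy chains. The same held for 2 of 4 slow and cardiac genes of light chains and a kinase (*Mylk3*) and 2 of 4 genes of myosin binding protein C. None of 3 slow and cardiac heavy chains, the member *Myh7* among them, and none of 2 cardiac troponins passed. Over all genes tested the share past 4-fold was 1.51%.

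Set against the members were 16 slow, cardiac and adult genes of the same families, the light chain kinase *Mylk3* included. Of these, 7 stood at 4-fold or more in HET1 (*Myh2*, *Myh4*, *Myl2*, *Myl3*, *Tnnt1*, *Tnni1* and *Tnnc1*), and their median ratio was 1.66. *Tnnc1*, at 7.27 CPM per kilobase, was the highest of them in HET1, and 6 of the 10 members lay above it. The members were chosen for standing out in HET1, so their distance from these 16 genes follows in part from that choice and is a description only. Genes shared by slow fibres and the heart were among the 7 at 4-fold or more, with ratios of 36.8 for *Myl3*, 14.3 for *Tnnc1* and 6.28 for *Myl2*. Of the 2 cardiac troponins, *Tnnt2* was at 1.11 times and *Tnni3* at 0.681 times the highest other library. For *Tnnt2* that library was KO2 (6.54 CPM), and HET1, at 7.25 CPM, lay well above WT, HET2 and HET3 (2.48 to 2.65 CPM). Of 8 listed heart genes 1 passed 4-fold, *Pln* (phospholamban, which restrains the calcium pump), with 39 counts in HET1 and 1 to 7 elsewhere, though 59.6% of its exon bases overlap Gm47644 on the opposite strand. *Nkx2-5* had 2 counts in HET1 and *Gata4* had 3. The 8 listed heart genes summed to 41.1 CPM in HET1, within the 34.4 to 53.3 CPM of the others, and most of that came from *Tbx20* and *Tbx5*, which the retina also expresses.

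**Figure D2:**
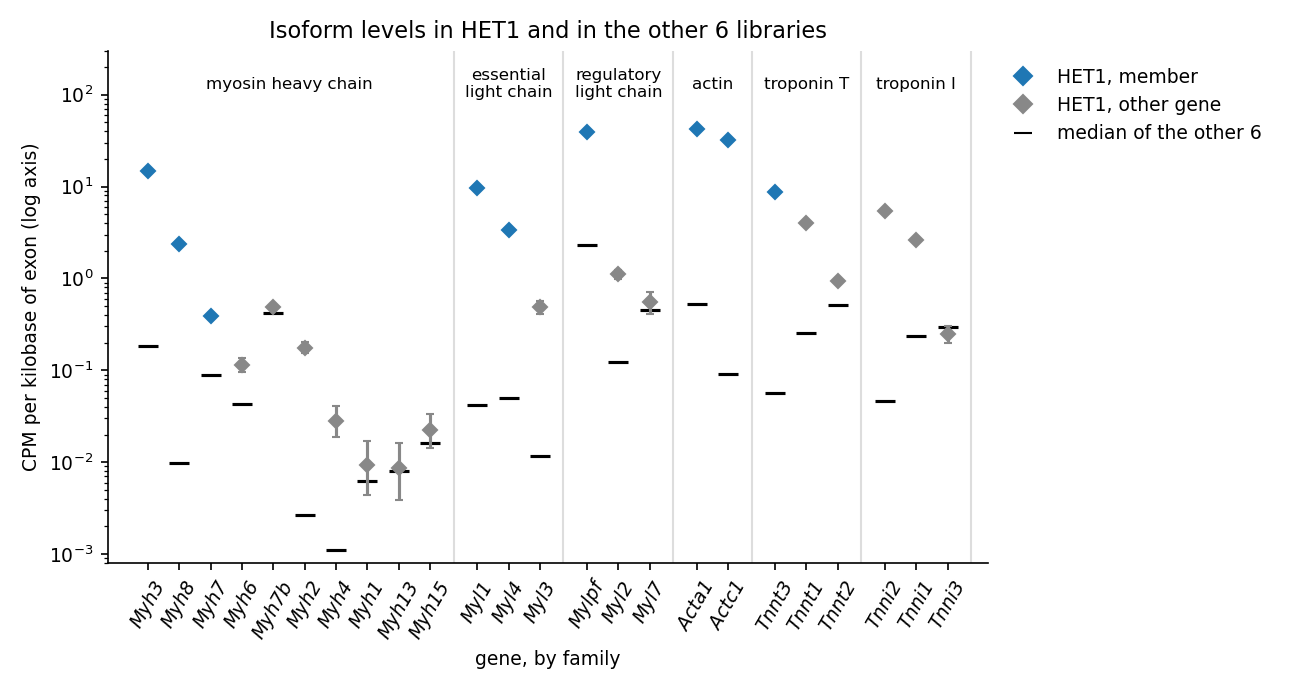
CPM per kilobase of exon (y axis, logarithmic) of the genes of 6 sarcomere families (x axis) in HET1, as diamonds with 95% counting intervals, beside the median of the other 6 libraries as a dash. Members are blue and other genes of the family grey. *Myh3* at 14.7 and *Myh8* at 2.37 stand above every other heavy chain in HET1, and the grey diamonds of *Myh7b*, *Myl7* and *Tnni3* sit near their dashes.

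The members did not keep 1 ratio across libraries. *Myh3* made up 26.8% (26.4 to 27.1) of the summed member counts in HET1 and 15.2% to 19.4% in the others. *Actc1* made up 15.7% in HET1 and 1.06% to 3.27% elsewhere, and *Myh8* 8.40% against 1.36% to 3.67%. The opposite held for *Mylpf*, with 12.4% in HET1 and 39.9% to 48.2% elsewhere, and for *Myh7*, with 1.01% against 11.8% to 15.2%. Expressed as a share of the HET1 CPM, the other libraries were at 20.6% to 27.9% for *Myh7* and at 5.68% to 7.16% for *Mylpf*. They were at 1.0% to 1.34% for *Myh3* and at 0.130% to 0.368% for *Actc1*.

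**Figure D3:**
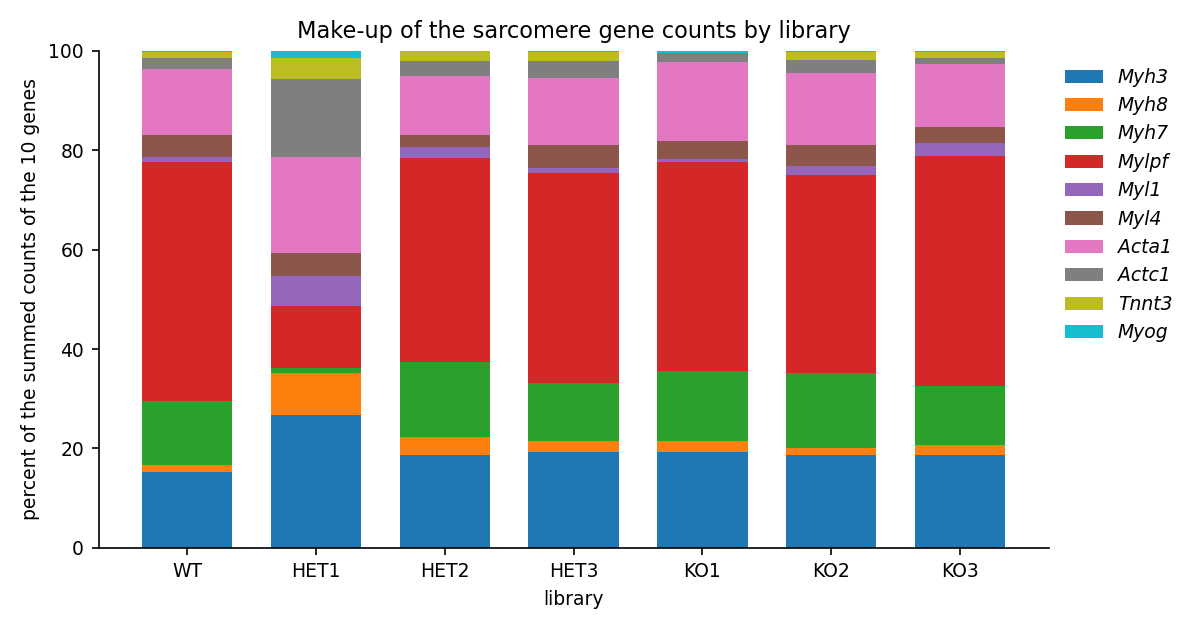
Share of each gene in the summed raw counts of the 10 sarcomere genes (y axis, percent) in each library (x axis), as stacked bars. *Mylpf* fills 39.9% to 48.2% of the bar in 6 libraries but 12.4% in HET1, where *Myh3*, *Acta1* and *Actc1* take 26.8%, 19.3% and 15.7%.

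Outside HET1 the more abundant members were steady. Over the other 6 libraries the CPM of *Acta1* was 0.806 ± 0.0773 (SD, n = 6), that of *Myh3* 1.08 ± 0.107, that of *Mylpf* 2.57 ± 0.257 and that of *Myh7* 0.798 ± 0.0873. Their coefficients of variation, 9.60% to 10.9%, correspond to 0.933 to 3.44 times the variance that counting alone would give. The rarer *Myl1*, *Tnnt3*, *Myh8* and *Actc1* varied by 36.0% to 53.8%, at 2.31 to 3.80 times the counting variance. WT had the lowest *Myh3* and *Myh8* of these 6 libraries, at 0.888 and 0.0807 CPM, and the second highest *Mylpf*, at 2.81 CPM after KO3. As WT is 1 library, these places in the order carry no error.

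The contrast of KO with HET was taken with and without HET1. With all 7 libraries the members' HET means had SDs larger than the means, as for *Myh3* at 30.3 ± 50.6 CPM in HET (n = 3) against 1.14 ± 0.0576 CPM in KO (n = 3). None of the 10 was called (0 of 10, against 7.22% of all genes), a call being an adjusted p under 0.05 in edgeR's quasi-likelihood test and a change beyond 1.2-fold. All 10 fitted log2 fold changes were negative, from -0.99 for *Myh7* to -7.32 for *Actc1*, with a median of -5.34 against -0.0047 for all genes. At an unadjusted p under 0.05 stood 8 of the 10, against 29.7% of all genes. This contrast contains the library the members were chosen on, so nothing is read from its counts.

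Without HET1 no member was called between KO and HET. All 10 passed the expression filter with HET1, but *Myog* passed only through it, so that 9 were tested on the other 6 libraries. The count was 0 of 9 (against 6.23% of all genes), none had an unadjusted p under 0.05 (against 26.1%), and DESeq2 called none either (against 9.54%). The median log2 fold change was 0.087, against 0.0036 for all genes. For the abundant members the estimate was narrow, as for *Myh3* at 0.051 ± 0.14 (SE), an interval of -0.24 to 0.34 at 2 SE either side. Likewise *Mylpf* was at 0.10 (-0.19 to 0.39), *Myh7* at 0.087 (-0.30 to 0.47) and *Acta1* at 0.22 (-0.11 to 0.55). The rarer members left wide intervals, such as -0.81 (-2.39 to 0.77) for *Tnnt3*, -0.73 (-1.63 to 0.18) for *Actc1* and 0.24 (-1.15 to 1.64) for *Myl1*. *Myh8* was at -0.55 (-1.40 to 0.29) and *Myl4* at 0.11 (-0.59 to 0.81). Differences of 2-fold either way lie outside these intervals for *Myh3*, *Mylpf*, *Myh7*, *Acta1* and *Myl4*. A 2-fold fall lies inside them for the other 4, and a 2-fold rise inside them for *Myl1* alone.

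**Figure D4:**
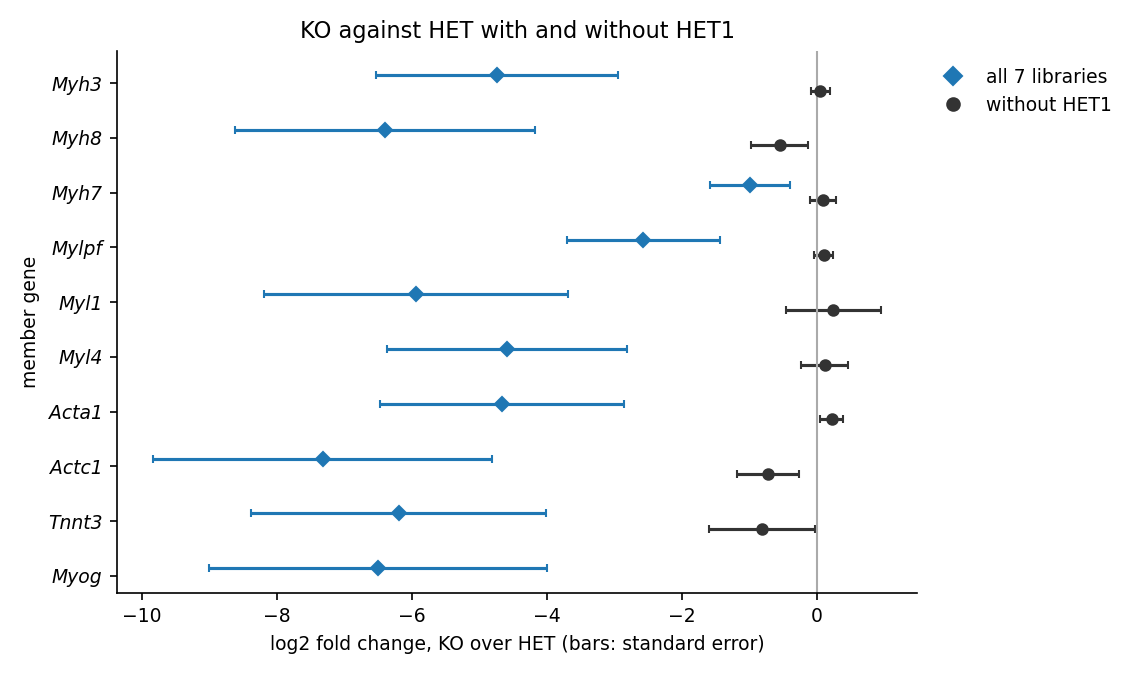
Log2 fold change of KO over HET (x axis, bars are standard errors) for each of the 10 sarcomere genes (y axis), fitted with all 7 libraries (diamonds) and without HET1 (circles). The diamonds run from -0.99 to -7.32, the circles from -0.81 to 0.24, and *Myog* has no circle because it fell below the filter without HET1.

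The rest of the muscle programme was followed in 67 listed genes that are not members. Of these, 39 stood at 4-fold or more in HET1 (against the 1.51% of all genes), and the summed level of the 67 was 253 CPM in HET1 and 37.8 to 54.6 CPM in the others. With HET1, 64 passed the expression filter, and without it 45. Genes that passed only through HET1 were nearly bound to have a high ratio there, so the 39 describe HET1 and carry no test. In bulk tissue, more cells of a type and more RNA per cell cannot be told apart. Among the 17 genes of the Z disc and giant filaments 12 passed 4-fold, led by *Des* (desmin, the intermediate filament of muscle) at 18.8 CPM and *Actn2* (α-actinin, which anchors thin filaments) at 18.2 CPM. *Ttn*, the titin spring of the sarcomere, had 2379 counts in HET1 and 394 to 659 elsewhere. Among the 16 genes of excitation, calcium handling and energy supply 9 passed, led by *Ckm* (muscle creatine kinase) with 2241 counts in HET1 and 6 to 13 elsewhere. *Casq2*, a calcium-binding protein of the sarcoplasmic reticulum, was at 8.20 CPM and *Atp2a1*, the calcium pump of fast fibres, at 8.03 CPM. In the family of myosin binding protein C, the slow form *Mybpc1* was at 9.49 CPM and 15.4 times the highest other library.

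The regulators of muscle differentiation were present beside *Myog*. Of the 6 listed regulators with a row in the count table, *Myog* included, 5 passed 4-fold, *Mef2c* being the exception at 2.37 times. *Myod1*, the bHLH factor that commits myoblasts, had 312 counts in HET1 and 4 to 16 elsewhere. *Myf6*, which acts in differentiating fibres, had 216 counts and 0 to 6 elsewhere. The fusion genes *Mymk* and *Mymx* of the same list had no row in the table. The acetylcholine receptor of the motor endplate swaps a fetal γ subunit (*Chrng*) for an adult ε subunit (*Chrne*) after birth. In HET1 *Chrng* had 193 counts, against 2 to 20 elsewhere, and *Chrne* had 3, against 0 to 2. The receptor list had 3 of 5 genes at 4-fold or more, and *Chrnb1* was not among them (ratio 0.968).

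Regulators that differ between head and body muscle were compared as a list each. Of the head regulators, *Msc* was at 2.01 times the highest other library, *Tbx1* at 0.927 and *Tcf21* had 4 counts in HET1. Of the 6 trunk and limb regulators *Pax3*, *Hoxa10*, *Hoxc10*, *Hoxd10* and *Hoxc6* had 0 counts in HET1, which allows up to 0.0177 CPM each, and *Lbx1* had 1.

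Without HET1, 5 of the 45 muscle list genes tested that are not members were called between KO and HET. With the members included it was 5 of 54, against 6.23% of all genes tested. The 5 genes are named for their calls, and *Stac3* and *Pygm* were thus picked after their values were seen. *Tnnt2*, the cardiac troponin T, rose, with 2.64 CPM in WT, 2.48 and 2.65 in HET2 and HET3, and 5.51, 6.54 and 5.23 in KO1, KO2 and KO3, while HET1 had 7.25. Its log2 fold change was 1.17 ± 0.14 (SE; edgeR adjusted p = 0.0116), and the KO libraries lay above WT, HET2 and HET3 without overlap. *Tnni1*, the slow troponin I, rose by 1.35 ± 0.25 (adjusted p = 0.0313), from 0.501 to 0.605 CPM in WT, HET2 and HET3 to 1.08 to 1.72 CPM in KO. *Stac3*, a part of the excitation-contraction machinery, rose by 1.04 ± 0.19 (adjusted p = 0.0333).

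On the other side, *Pygm*, the muscle form of glycogen phosphorylase, fell, with a log2 fold change of -0.91 ± 0.12 (SE; adjusted p = 0.0144). WT, at 3.91 CPM, was above HET2 and HET3 (2.41 and 2.39 CPM) and further from KO (1.22 to 1.31 CPM). *Cryab*, a small heat shock protein of muscle and lens, fell by 2.86 on the log2 scale (SE 0.57, adjusted p = 0.0383). The lens list moved with it, summing to 57.7 and 80.6 CPM in HET2 and HET3, to 2.51, 6.16 and 50.6 CPM in KO1, KO2 and KO3 and to 14.3 CPM in WT, and its part in the *Cryab* result was not tested. With all 7 libraries edgeR called only *Cryab* among these 5 (adjusted p = 0.0259), and not when HET2, HET3 or KO2 was left out (adjusted p = 0.0829 to 0.0851), while DESeq2 called *Cryab* and *Pygm* (adjusted p = 0.000445 for *Pygm*). None of the 5 was called when HET2 or HET3 was left out together with HET1, which leaves 1 HET library.

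Other tissues stood high in HET1 along with the muscle genes. Of 7 pigmented cell genes 5 passed 4-fold, among them the melanosome matrix gene *Pmel* and the melanin enzymes *Dct*, *Tyrp1* and *Tyr*, and the list summed to 531 CPM against 21.1 to 64.6 CPM elsewhere. *Rpe65*, which defines mature retinal pigment epithelium, had 0 counts in HET1. Of 12 fibroblast and periocular mesenchyme genes 6 passed, led by the collagens *Col1a2*, *Col1a1* and *Col3a1*, and the list summed to 496 CPM against 51.5 to 95.7 CPM. Of 6 surface epithelium genes 2 passed, and the list summed to 243 CPM in HET1, 62.0 CPM in KO3 and 4.37 to 7.16 CPM in the other 5 libraries. *Krt12*, a keratin of the corneal epithelium, was at 13.6 CPM in HET1 and 0.143 to 0.718 CPM elsewhere. KO3, second in epithelium genes, also had the highest summed level of the members outside HET1. That level was 6.40 CPM, against 5.57 to 6.16 CPM in WT, HET2, HET3, KO1 and KO2. The part of these tissues in the muscle result was not tested.

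Parts of the smooth muscle and tendon lists were also high in HET1. The 7 smooth muscle genes summed to 69.5 CPM in HET1 and 26.6 to 33.2 CPM in the others, with 3 past 4-fold, among them *Acta2* (smooth muscle α-actin) at 20.2 CPM and *Myh11* (smooth muscle myosin) at 14.1 CPM. *Smtn*, at 28.4 CPM in HET1 and 24.0 to 28.8 CPM elsewhere, made up most of that sum outside HET1, and the median ratio of the list was 3.68. The tendon list summed to 11.5 against 2.88 to 4.93 CPM, and only *Tnmd* (tenomodulin) of its 5 genes passed, at 62.3 times the highest other library. Of 6 Schwann cell genes 1 passed, *Sox10* at 6.28 times.

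**Figure D5:**
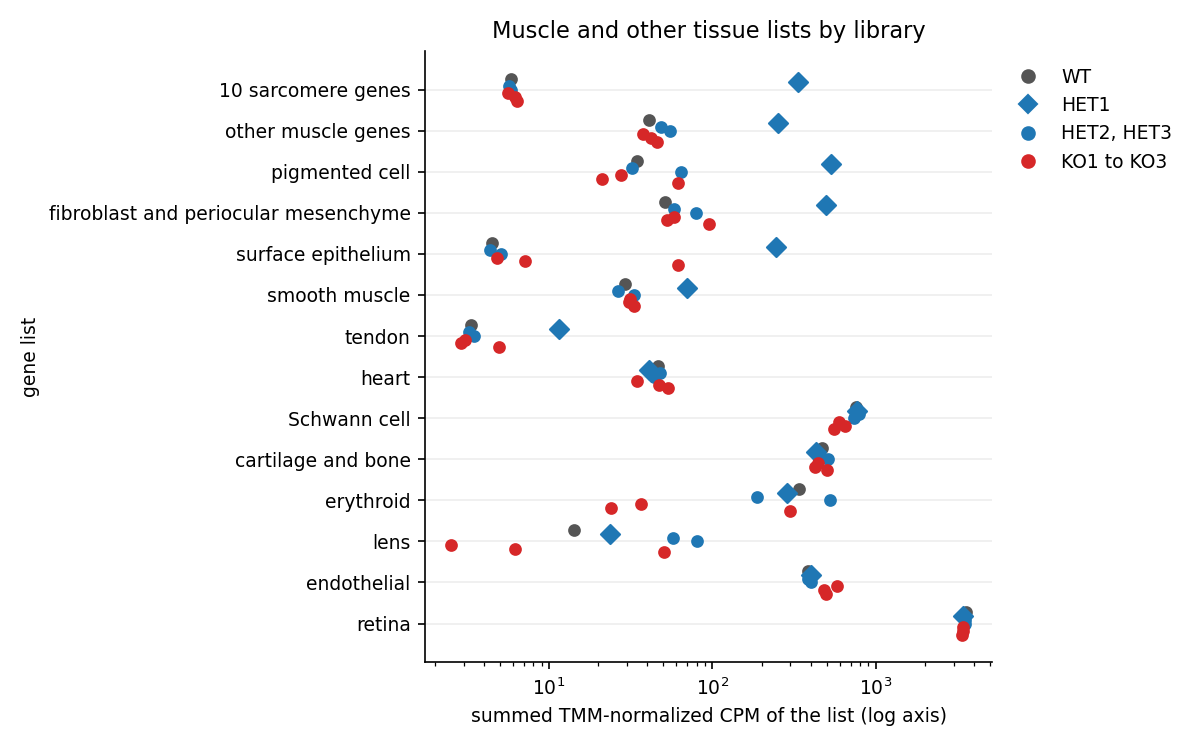
Summed TMM-normalized CPM (x axis, logarithmic) of the 10 sarcomere genes, the 67 other muscle genes and 12 lists of other tissues (y axis) in each library, coloured by genotype with HET1 as a diamond. HET1 lies to the right of all others for muscle, pigmented cell, fibroblast, surface epithelium, smooth muscle and tendon lists, and inside the range of the others for the retina list.

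Likeness to the members was also searched outside the members and the gene lists, so listed muscle genes are not in these counts. Compared were 14623 other genes that passed the expression filter and had at least 100 counts in HET1. Of these, 43 had a Pearson correlation above 0.99 with the mean log2(CPM + 0.5) of the members over the 7 libraries. The median over all 14623 was 0.0053. As 1 library carries the pattern, these values describe HET1 and have no p. Among the highest by correlation were *Cav3*, *Lmod3*, *Epyc*, *Gm44122*, *Mustn1*, *Apoa4*, *Smpx*, *Atp1b4* and *3425401B19Rik*. *Cav3*, the muscle caveolin, had 432 counts in HET1 and 1 to 3 elsewhere. *Lmod3*, a nucleator of muscle thin filaments, had 205 in HET1 and at most 1 elsewhere. By ratio, the first 10 also held *Afp*, *Gm29216* and *Kera*. *Afp* (α-fetoprotein) had 4259 counts in HET1 and 1 to 27 elsewhere, and *Kera* (keratocan, of the corneal stroma) 1031 and 0 to 14.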

How the data were processed

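Per the study's methods, the authors aligned reads of stranded mRNA libraries to GRCm38 with GENCODE M10 using STAR within rMATS-turbo and counted them with featureCounts. The labels name TRIzol and the methods a column kit for RNA extraction. The deposited values are whole-number counts per gene, not normalized. How strand and multi-mapping reads were handled in counting is not given in the sources used here, so counts of close paralogs (heavy chains, actins) and overlapping genes are uncertain.

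Counts were fitted with edgeR 4.0.16 (limma 3.58.1, R 4.3.3): filterByExpr on genotype (20019 of 48440 genes), TMM factors from 0.988 to 1.03, glmQLFit and glmQLFTest with a mean per genotype and all 7 libraries, and Benjamini-Hochberg adjustment over all genes tested. A gene was called at an adjusted p under 0.05 with a log2 fold change beyond 0.263 in either direction. The standard error was the log2 fold change over the square root of F. CPM are TMM-normalized. Ratios of HET1 to the highest other library carry exact binomial and levels exact Poisson 95% intervals, which cover counting error only. Exon lengths and gene positions are from GENCODE M21 on GRCm38, and promoters from RefSeq on GRCm38.p6. Likeness to the members used log2(CPM + 0.5). Alternatives were DESeq2 1.42.0, RLE and upper-quartile scaling, other filters, no WT, the replicate number as a block, each library left out, and other lengths and denominators for the isoform shares. Leaving out HET1 together with another library, or with DESeq2, and subtracting the level of the other libraries were chosen after seeing the data.

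The members and the gene lists were chosen with earlier results of these data known. The 28 lists cover sarcomere families, myogenic and regional regulators, and 12 other tissues. Named were all members, the 4 most abundant genes of a list in HET1, isoform counterparts, and the 10 genes outside the lists most like the members by correlation and by ratio. Between replicates the spread was 16.3 to 63.5 times that of counting alone, so no library repeats another. The p-values measure the spread between pools. 121 rows repeat a symbol, none of them of a member. Results for some genes are not reported here.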

Additional observations from a re-analysis of the deposited data

How the results depend on the processing

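The count of members called between KO and HET was 0 under all 21 alternatives run, but DESeq2 with all 7 libraries gave an adjusted p for *Myh7* alone. The log2 fold changes with HET1 in the fit were negative under every alternative for each member, and leaving out HET1 turned 6 of them. With 1 HET or KO library left out at a time, the values ran from -5.30 to 0.051 for *Myh3*, -1.36 to 0.087 for *Myh7*, -3.08 to 0.10 for *Mylpf*, -6.52 to 0.24 for *Myl1*, -5.17 to 0.11 for *Myl4* and -5.24 to 0.22 for *Acta1*, the highest each time without HET1. With the replicate number as a block (6 HET and KO libraries), 1268 genes and 0 members were called, and the members' median log2 fold change was -1.78. Same-numbered HET and KO libraries deviated from their group means with correlations of -0.032, 0.26 and 0.17. For libraries of different numbers the correlations ran from -0.36 to 0.19. Whether same-numbered libraries share more than the number was not tested. Over all genes the 1445 calls became 2060 with DESeq2, 2221 with no limit on the fold change, and between 386 and 1673 with 1 HET or KO library left out. With HET1 and a further library out they were 48 (HET2), 45 (HET3), 1195 (KO1), 291 (KO2) and 1998 (KO3). Without HET1, muscle list genes called numbered 5 with edgeR, 8 with DESeq2 and, with a further library out, 0 (HET2 or HET3), 3 (KO1), 1 (KO2, *Tnnt2*) and 6 (KO3). The median ratio of HET1 to the highest other library was 91.3 to 95.3 under the other scalings. The fetal share of heavy chain in HET1 (93.2%) was 92.9% with the longest transcript, 92.8% without length correction, 95.9% without *Myh7b* and *Myh15* and 96.3% on the level above the other libraries. The cause of these shifts was not tested. Depth limits *Myog*, and much of *Tnnt3*, *Myl1*, *Myh8* and *Actc1*, outside HET1.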

Other observations

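Lists of blood, vessel, cartilage and lens genes did not follow the muscle genes. The 7 erythroid genes summed to 287 CPM in HET1 and from 24.1 CPM in KO2 to 527 CPM in HET3, with 0 of 7 past 4-fold in HET1. The 6 endothelial genes summed to 403 CPM in HET1 against 384 to 578 CPM, and the 7 cartilage and bone genes to 433 CPM against 426 to 507 CPM, with 0 past 4-fold in either list. The lens list was at 23.7 CPM in HET1, below HET2, HET3 and KO3, with 0 of 8 genes past 4-fold. The 6 Schwann cell genes summed to 769 CPM in HET1 against 557 to 784 CPM, most of it *Gap43*, which neurons also express.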
